A study of Mus musculus with 6 samples.

Results

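The insulin-like growth factor (IGF) axis was examined in single cells of the fetal mouse intestine through 8 of the 24568 genes counted: the ligand gene Igf1, the receptor gene Igf1r and the binding protein genes Igfbp2, Igfbp3, Igfbp4, Igfbp5, Igfbp6 and Igfbp7. They were chosen by name as the rows of the deposited gene list for these symbols, and all 8 were present. IGF1 is a secreted growth factor that signals through the receptor tyrosine kinase IGF1R to the PI3K-AKT and MAPK pathways. IGFBP2 to IGFBP6 bind IGFs with high affinity and hold them in the extracellular space, where they can block or prolong signalling, and secreted proteases such as PAPP-A release the ligand by cutting some of them. IGFBP7 binds IGFs weakly and is known mainly as a protein of the matrix and of vessel walls.

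Intestines came from Pdgfra-H2BGFP mouse embryos of strain C57/BL6, in which the Pdgfra locus drives a nuclear green fluorescent protein, so brightness reports that gene's activity. Embryos of 5 ages were cut into pieces of 2.5 mm and pooled: 4 replicates and 3 segments at E13.5, 3 and 5 at E14.5, 2 and 10 at E15.5, 2 and 15 at E16.5, and 2 and 20 at E18.5. By the titles, E15.5 was run together with E16.5 as 2 lanes of unselected cells and 1 of enriched cells, and E13.5 with E14.5 and E18.5 had the same layout, which makes 6 samples in 4 groups. Every sample was gated to exclude DAPI and Ter119 signal, and enriched cells carried CD31, CD45 or Epcam or were bright for PDGFRA-GFP.

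All samples were deposited as 1 matrix of 13127 cells and 100735249 unique molecular identifiers (UMIs, counts of captured transcripts). The cell barcodes end in 6 suffixes, and no label ties a suffix to a sample, an age or a sort. The suffixes were therefore used as technical sets: A1, A2 and A3 share the ending _1, and B1, B2 and B3 the ending _2. The matrix is thus 1 pooled sample with no replicates, and every interval given is a 95% interval that covers counting error only. After filtering, 12618 cells remained, 1175 to 2509 in a set, with a median of 3549 to 4180 UMIs in the sets of ending B, 7045 in A3 and 12120 and 13580 in A1 and A2. The endings name some genes differently: 107 genes with at least 20 CPM in A had 0 UMIs in B, 70 such genes of B had 0 in A, and 67 and 57 of them have a RefSeq synonym counted in the other ending alone. Levels are therefore compared within an ending only. Of the barcode sequences, 22 occurred in more than 1 set.

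Clusters were made separately in each ending and are numbered by size, Ac1 onwards and Bc1 onwards. Clusters with PDGFRA-high mesenchyme markers held 88% of A3 and 91.3% of B3, against 1.97% to 2.07% of A1 and A2 and 20.2% to 20.9% of B1 and B2. Other mesenchyme held 81.7% and 81.9% of A1 and A2, 49.0% and 45.9% of B1 and B2, and 4.51% and 4.86% of A3 and B3. A further 2372 cells lay in clusters left without a name. The summed level of 15 PDGFRA-high markers was 3565 CPM (counts per 1000000 UMIs of the group) in A3 against 596 and 556 in A1 and A2, and 2241 in B3 against 617 and 661 in B1 and B2. No cluster was named as endothelial, epithelial or myeloid, although the sort also used CD31, CD45 and Epcam. The unnamed Ac16, with 81 cells of A3, had 5 of 8 myeloid markers at 4-fold or more.

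In the GRCm38 mouse genome (GENCODE M21) Igf1 lies on chromosome 10 (chr10:87858265-87937042, plus strand) and Igf1r on chromosome 7 (chr7:67952827-68233668, plus strand). Igfbp2 (chr1:72824503-72852474, plus strand) and Igfbp5 (chr1:72857932-72874884, minus strand) are neighbours with their ends facing and 5457 bases between them. Igfbp3 (chr11:7206086-7213923, minus strand) and Igfbp4 (chr11:99041244-99054392, plus strand) share chromosome 11 but lie far apart. Igfbp6 lies on chromosome 15 (chr15:102144362-102149511, plus strand) and Igfbp7 on chromosome 5 (chr5:77349240-77408041, minus strand). The last 1000 bases of Igfbp7, where transcript ends are counted, overlap Polr2b on the other strand, and the sources used here do not state whether strand was used in counting. No annotated gene overlaps the last 1000 bases of the other 7.

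The promoters of Igfbp3 and Igfbp4 are shown because both genes had their highest level of ending A in the same small cluster, described further on. Each line gives the 250 bases before the annotated start, 5′ to 3′ on the gene's strand, from RefSeq on GRCm38.p6 (chr11:7213924-7214173, minus strand, for Igfbp3 and chr11:99040994-99041243, plus strand, for Igfbp4), with matches to 3 motifs in capitals.
Igfbp3: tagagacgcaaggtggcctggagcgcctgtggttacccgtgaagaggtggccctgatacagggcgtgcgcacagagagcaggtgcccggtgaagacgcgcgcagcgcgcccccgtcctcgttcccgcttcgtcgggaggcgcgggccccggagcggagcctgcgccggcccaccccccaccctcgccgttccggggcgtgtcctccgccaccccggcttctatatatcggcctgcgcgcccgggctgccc
Igfbp4: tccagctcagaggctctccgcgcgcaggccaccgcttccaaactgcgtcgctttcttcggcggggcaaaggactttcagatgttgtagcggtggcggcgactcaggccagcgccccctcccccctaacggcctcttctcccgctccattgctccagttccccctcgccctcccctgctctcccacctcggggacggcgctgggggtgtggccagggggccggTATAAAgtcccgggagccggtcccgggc
The TATA box was searched as TATAAA on both strands and was found in 12.4% of 32851 mouse promoter windows of this length. The CCAAT box was found in 33.8% of them and the GC box, searched as GGGCGG, in 32.7%. Igfbp4 held 1 match, to the TATA box, and Igfbp3 held none of the 3 motifs. The GC content was 73.2% in the Igfbp3 window and 69.2% in that of Igfbp4.

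Igf1, the ligand gene, was lower in the PDGFRA-rich set of each ending. Its level was 87.8 CPM in A1, 83.9 in A2 and 61.2 in A3, and in ending B 110.5 in B1, 113.1 in B2 and 35.8 in B3. Sets 1 and 2 were close to each other in both endings, and set 3 lay below both. The log2 ratio of set 3 to sets 1 and 2 together was -0.49 (-0.62 to -0.36) in ending A and -1.64 (-1.83 to -1.47) in ending B. To compare cells at 1 depth, each was thinned to 2000 UMIs, which left out 41 shallower cells. At that depth 15.8%, 14.3% and 11.2% of the cells of A1, A2 and A3 had an Igf1 UMI, and 17.9%, 16.7% and 5.95% of B1, B2 and B3, against 42.4%, 42.2% and 25.3%, then 32.2%, 30.8% and 10.0%, before thinning.

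Igf1r, which encodes the receptor, was nearly level. Its level was 98.7, 88.1 and 88.4 CPM in A1, A2 and A3 and 75.9, 81.5 and 86.4 in B1, B2 and B3. The log2 ratio of set 3 to sets 1 and 2 was -0.08 (-0.19 to 0.02) in ending A and 0.13 (0.0029 to 0.26) in ending B. At 2000 UMIs 18.2%, 16.7% and 15.4% of A1, A2 and A3 had an Igf1r UMI, and 12.6%, 14.8% and 15.6% of B1, B2 and B3 (65.2%, 66.2% and 45.6%, then 26.1%, 29.0% and 26.5%, before thinning). Over the clusters of at least 50 cells Igf1r ranged from 71.1 to 120.8 CPM in ending A and from 51.7 to 110.2 in ending B, the narrowest range of the 8 genes in each ending by ratio of highest to lowest among those with no cluster at 0.

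Igfbp2, a binding protein abundant in fetal tissues, was the lowest of the axis in set 3 relative to sets 1 and 2 of ending A. Its level was 65.1 and 63.5 CPM in A1 and A2 and 7.99 in A3, and 23.5 and 23.1 in B1 and B2 and 5.88 in B3. The log2 ratios were -3.01 (-3.36 to -2.68) and -1.99 (-2.44 to -1.56). At 2000 UMIs the share of cells with an Igfbp2 UMI was 10.7%, 9.79% and 0.939% in ending A and 4.46%, 3.72% and 0.876% in ending B. Before thinning it was 42.2%, 44.5% and 4.6%, then 9.5%, 9.05% and 1.33%.

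Igfbp4 and Igfbp7 were higher in set 3 of both endings. Igfbp4, whose protein is the main substrate of PAPP-A, had 319, 317 and 409 CPM in A1, A2 and A3 and 220, 217 and 369 in B1, B2 and B3, with log2 ratios of 0.36 (0.31 to 0.41) and 0.76 (0.69 to 0.82). Igfbp7 had 208, 193 and 376 CPM in ending A and 194, 193 and 222 in ending B, with log2 ratios of 0.91 (0.85 to 0.96) and 0.20 (0.12 to 0.28). At 2000 UMIs 46.8%, 47.3% and 53.8% of A1, A2 and A3 had an Igfbp4 UMI, and 35.3%, 35.4% and 51.4% of B1, B2 and B3. The Igfbp7 shares were 28.9%, 28.1% and 49.0%, then 30.0%, 29.2% and 33.0%. Before thinning the order did not hold in each case, with 94.9%, 96.2% and 90.9%, then 60.2%, 58.0% and 71.2%, for Igfbp4 and 64.7%, 65.9% and 81.1%, then 49.3%, 50.3% and 47.4%, for Igfbp7. None of these 4 ratios reached 2-fold.

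Igfbp5, a binding protein that attaches to extracellular matrix, differed in direction between the endings. It had 67.5, 60.1 and 128 CPM in A1, A2 and A3, a log2 ratio of 1.00 (0.91 to 1.10), and 49.5, 58.2 and 13.6 in B1, B2 and B3, a log2 ratio of -1.99 (-2.29 to -1.71). The share of cells at 2000 UMIs did not follow the CPM in ending A, with 11.7% and 10.4% in A1 and A2 and 9.73% in A3. Before thinning it was 33.8%, 33.2% and 15.6%. In ending B the thinned shares were 8.19%, 8.92% and 1.48%, against 13.6%, 14.3% and 2.80% before. The intervals of the thinned shares of A1, A2 and A3 overlapped (10.5% to 13.1%, 9.14% to 11.8% and 8.09% to 11.6%). The higher level of A3 thus came with no larger share of cells.

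Most of the Igfbp5 UMIs of A3 lay in 1 cluster. Cluster Ac2, a PDGFRA-high cluster of 663 cells led by Slco2a1, Npnt and Glp2r, gave 1095 of the 1186 Igfbp5 UMIs of A3 (92.3%). Of its 619 cells in A3, 139 (22.5%) had any Igfbp5 UMI, out of 183 such cells in the set, and 38 cells with at least 10 held 68.3% of the cluster's UMIs there. The cluster was singled out by these UMIs, so leaving it out had to lower the ratio of A3 to A1 and A2, and the -1.85 without it (log2) describes where the UMIs lay and nothing more. At 2000 UMIs, 31 cells of the cluster in A3 had both Igfbp5 and Igfbp3, against 10.9 from the separate shares, a ratio of 2.85. In the same set, PDGFRA-high cluster Ac12, led by Opcml and Calb1, had 10.9 CPM of Igfbp5 against 271 in Ac2, and 714 CPM of Igfbp7 against 464. Summed enterocyte markers were 2561 CPM in Ac2 and 2331 in the whole of A3, against 472 to 492 in A1 and A2. Summed epithelial markers were 412 CPM in Ac2 and 371 in A3, against 52.6 and 50.3 in A1 and A2. Of the 8 epithelial markers, 6 were at 4-fold or more in Ac2 and 5 in Ac12. The part of both marker lists in these values was not tested.

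Igfbp3, the main IGF carrier of the circulation, had 35.6, 34.9 and 62.0 CPM in A1, A2 and A3, a log2 ratio of 0.81 (0.68 to 0.95). Of the 574 Igfbp3 UMIs of A3, 433 lay in cluster Ac2. The PDGFRA-high clusters Ac12 and Ac14 had only 8.95 and 7.17 CPM in that set. In ending B Igfbp3 stood at 5.77, 5.82 and 3.19 CPM in B1, B2 and B3, below the minimum of 20 CPM, where no call was made. At 2000 UMIs the shares were 3.91%, 3.5% and 7.0% in ending A and 0.819%, 0.840% and 0.599% in ending B, against 11.03%, 8.59% and 13.9%, then 2.22%, 2.11% and 1.19%, before thinning. Igfbp6, which prefers IGF2, was close to the limit of detection, with 1.10, 0.83 and 0.86 CPM in ending A and 0.80, 0.72 and 0.12 in ending B, the last from 1 UMI. Its groups could not be told apart at this depth.

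**Figure D1:**
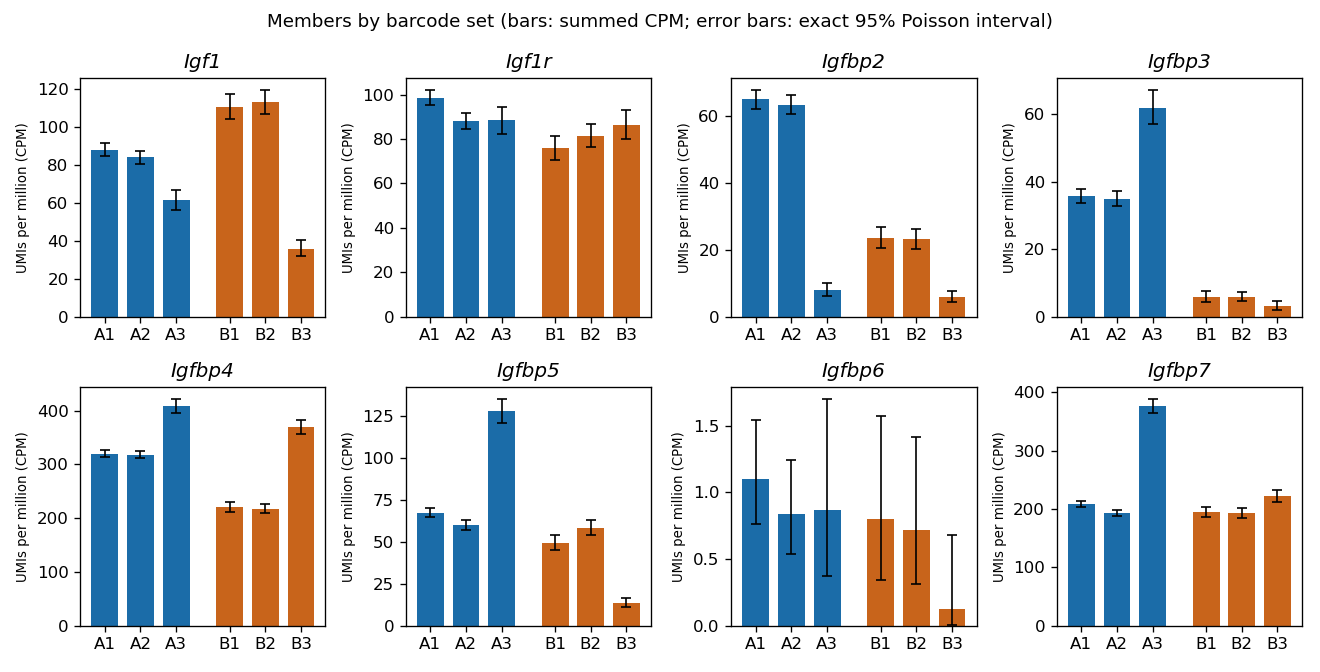
Level of each of the 8 genes in the 6 barcode sets, in CPM (y axis from 0, a separate scale for each gene). Bars are summed counts, error bars exact 95% Poisson intervals, blue ending A and orange ending B. Igfbp2 is low in A3 and B3 (7.99 and 5.88 CPM), and Igfbp5 is highest in A3 (128) but lowest in B3 (13.6).

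Counted against a threshold of 2-fold with at least 20 CPM on 1 side, 1 of 7 genes tested was higher in A3 (Igfbp5) and 1 lower (Igfbp2), where 9.63% of all 7416 genes tested were higher and 5.68% lower. In B3, 0 of 6 were higher and 3 lower (Igf1, Igfbp2 and Igfbp5), where 8.58% of 6407 genes were higher and 5.42% lower. The median log2 ratio of the genes of the axis was 0.36 in ending A and -0.76 in ending B, beside -0.05 and 0.12 over all genes tested. In ending A the single higher call sat at the threshold: with A1 alone as the reference it was lost, and most Igfbp5 UMIs of A3 lay in cluster Ac2.

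The sets differ in the mix of cells, so PDGFRA-high cells were set against other mesenchyme within each ending. Igfbp2 was lower in PDGFRA-high cells, with 7.54 against 66.5 CPM in ending A (log2 ratio -3.14, -3.53 to -2.78), and in ending B 7.24 against 20.8 (-1.53, -1.91 to -1.15). Igfbp4 was higher, with 452 against 312 CPM in ending A (0.53), and in ending B 363 against 190 (0.94). Igfbp7 was higher, with 442 against 211 CPM in ending A (1.07), and in ending B 241 against 194 (0.32). Igfbp4 and Igfbp7 were each higher and Igfbp2 lower in PDGFRA-high cells in 6 of 6 sets taken singly. Igfbp2 in B2 differed by only -0.07. Low Igfbp2 was not particular to PDGFRA-high cells. In other mesenchyme of ending A it was 12.9 CPM in Ac4, 21.1 in Ac15 and 22.8 in Ac10, beside 12.6 in the PDGFRA-high Ac14. The highest clusters of other mesenchyme there were Ac3 (139.7) and Ac5 (91.5), among those of at least 50 cells. Igfbp7 varied within the classes: PDGFRA-high clusters had 472 (Ac2), 739 (Ac12) and 119 CPM (Ac14) in ending A. Those of ending B had 207 (Bc1), 304 (Bc3), 296 (Bc4) and 151 (Bc6). Pdgfra stood at 2.85, 1.79, 1.40 and 3.76 times the other cells of the ending in these clusters, in the same order. Bc3 and Bc4, with most Igfbp7, thus had the smallest excess of Pdgfra. Bc6, with the largest, lay below the 194 CPM of other mesenchyme. Other mesenchyme of ending A ranged from 38.3 (Ac3) to 855 CPM (Ac4) over clusters of at least 50 cells.

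Among PDGFRA-high cells alone, set 3 no longer stood above sets 1 and 2 of ending A for Igfbp4 (log2 ratio -0.32) or Igfbp7 (-0.27), and the Igfbp5 ratio was 0.13. For Igfbp3 no order of the sets could be read in these cells, since A1 had 4 UMIs (9.33 CPM) and A2 78 (204 CPM), 33 and 27 of them in single cells, against 62.0 CPM in A3. In ending B Igfbp4 was at 0.24 and Igfbp7 at -0.10 in these cells. Igfbp2 stayed lower in A3 (-2.53) and B3 (-2.27), and so did Igf1 (-0.74 and -0.97). Among other mesenchyme alone Igfbp7 was at -0.19 in A3 and -0.54 in B3, and Igfbp4 at 0.07 and 0.40. A1 and A2 gave only 51 and 41 PDGFRA-high cells to this comparison.

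Igf1 and Igfbp5 differed between the endings. Igf1 was 73.9 against 84.5 CPM in ending A (-0.19, -0.32 to -0.07), and in ending B 47.2 against 135.9 (-1.53, -1.67 to -1.38). The pooled Igf1 value of ending A did not hold set by set: the log2 ratio was -0.08 (-0.59 to 0.40) in A1, 0.90 (0.49 to 1.27) in A2 and 0.74 (0.19 to 1.35) in A3. In B1, B2 and B3 it was -0.76, -1.22 and -0.35, the last with an interval that includes 0. Igfbp5 was 154 against 48.8 CPM in ending A (1.65, 1.55 to 1.75), and in ending B 7.43 against 44.7 (-2.59, -2.95 to -2.25). Set by set Igfbp5 was higher in PDGFRA-high cells in ending A, where A1 differed by 0.26 with overlapping intervals, A2 by 2.31 and A3 by 1.71, and lower in B1, B2 and B3 (-1.85, -1.89 and -2.85). The 41 PDGFRA-high cells of A2 held 89 Igfbp5 UMIs, 31 of them in 1 cell. Of the PDGFRA-high clusters of ending A only Ac2 (271.6 CPM) lay above other mesenchyme, with 11.2 in Ac12 and 26.2 in Ac14. Unnamed clusters were in neither class: Ac1 had 159.8 CPM and 24.0% of the Igfbp5 UMIs of ending A, and Bc2 121.6 CPM and 33.4% of those of ending B. Igf1r differed little, with -0.06 in ending A and -0.16 in ending B.

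By the 2-fold threshold 2 of 7 genes tested were higher in PDGFRA-high cells of ending A (Igfbp5 and Igfbp7) and 1 lower (Igfbp2), beside 11.9% higher and 9.84% lower of 7509 genes. In ending B 0 of 6 were higher and 3 lower (Igf1, Igfbp2 and Igfbp5), beside 11.4% and 9.05% of 6443 genes. The clusters were made without the 8 genes and without the pathway list among the clustering genes, but from the same cells, so these values describe the classes and test nothing.

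**Figure D2:**
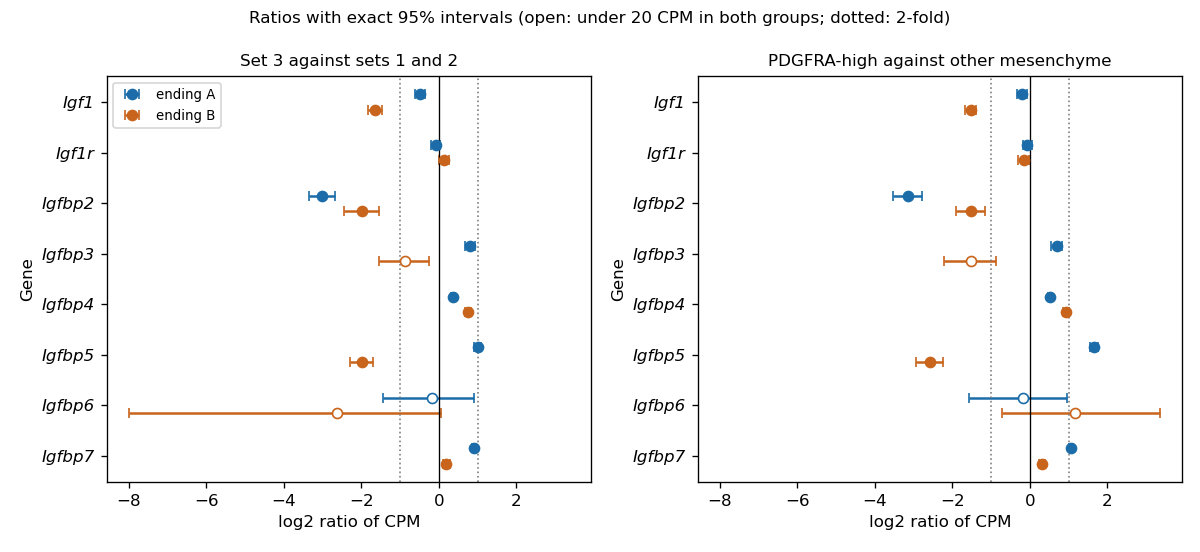
Log2 ratio of CPM (x axis) for the 8 genes (y axis), left for set 3 against sets 1 and 2 and right for PDGFRA-high against other mesenchyme, in ending A (blue) and ending B (orange). Bars are exact 95% intervals, open points had under 20 CPM on both sides, and dotted lines mark 2-fold. Igfbp2 lies left of 0 in all 4 comparisons, and Igfbp5 on opposite sides in the 2 endings.

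The binding proteins differed in which clusters held them. Clusters are ranked here among those of at least 50 cells, and values of the smaller cluster Ac18, 25 cells of other mesenchyme led by C3, Clu and Serpina3g, are given where it stood higher. Igfbp3 was the most concentrated: cluster Ac17, 53 cells of other mesenchyme led by P2rx1, Col18a1 and Ifi47, had 3289 CPM and held 1372 UMIs, 51.3% of all Igfbp3 UMIs of ending A. Of its cells 51 had an Igfbp3 UMI, with a median of 22 and up to 109 in 1 cell. The cells came from all 3 sets (26 from A1, 24 from A2 and 3 from A3), with 3283, 3141 and 4745 CPM. Without them Igfbp3 stood at 15.0, 13.0 and 51.2 CPM in A1, A2 and A3. The cluster was singled out by its Igfbp3 level and held 58.1%, 63.0% and 17.6% of the Igfbp3 UMIs of these sets. Leaving it out thus had to raise the Igfbp3 ratio of A3 to A1 and A2. The next clusters were Ac2 with 117.5 CPM and Ac4 with 90.3, while Ac18 had 304 CPM (240 to 381), and no cluster of ending B exceeded 15.7.

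Cluster Ac17 also had the highest Igfbp4 level of ending A, 1479 CPM, against 570 in the next cluster, Ac12. Its Igfbp7 level of 846 CPM was close to the 855 of Ac4, with overlapping intervals, and both were below the 2100 CPM of Ac18 (1925 to 2286). Igfbp6 had 0 UMIs in Ac17. All 8 smooth muscle markers had at least 20 CPM in Ac17, with a summed level of 2076 CPM, against 7 of 8 and 1599 and 1644 CPM in the whole of A1 and A2. All 9 mesenchyme markers did so, with a summed level of 5363 CPM against 8309 and 7808 in A1 and A2. Of the 15 PDGFRA-high markers 10 reached 20 CPM, against 8 in A1 and in A2, and Sox6 and Bmp7 were at 0. Their summed level was 1474 CPM against 596 and 556 in A1 and A2. Pdgfra itself had 93.5 CPM in Ac17, 0.36 times the level of the other cells of ending A. Only 1 smooth muscle marker was at 4-fold or more. The 5 enterocyte markers summed to 1048 CPM in Ac17, against 492 and 472 in A1 and A2, and the 7 lymphoid markers to 283 against 81.9 and 78.5, with Il7r, Gata3, Cd3e and Thy1 at 0. The part of these other cell types' genes in the values of Ac17 was not tested. Of 8 endothelial markers 3 had any UMI, with a summed level of 24.0 CPM, and Cdh5, Tek, Emcn, Cldn5 and Esam were at 0. Of 6 pericyte markers 3 reached 20 CPM, and Higd1b was at 0.

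Igf1 was highest in clusters Ac4 (359 CPM), led by Col6a5 and Lepr, and Ac10 (310), led by Dpt and Aspn, and lowest in Ac5 (12.2), with 522 (437 to 619) in Ac18. In ending B it was highest in Bc8 (300), led by Prss35 and Cxcl13, and lowest in the PDGFRA-high cluster Bc6 (8.64). Igfbp2 was highest in Ac3 (139.7 CPM), led by Ccnd1 and Hmga2, and in the unnamed Bc15 (137.8), led by Gdf10 and Cdo1. It was lowest in the PDGFRA-high clusters Ac12 (3.92) and Bc6 (4.61).

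Igfbp5 was highest in Ac2 (271.6 CPM) and Ac10 (222.5), with 261 in Ac18, and in ending B in Bc15 (338.8) and Bc8 (154.1). It was lowest in the unnamed Ac16 (8.43) and in the PDGFRA-high Bc1 (1.77). Bc15 alone gave 37 of the 111 Igfbp5 UMIs of B3 from 18 cells. Among clusters of at least 50 cells Igfbp7 was highest in Ac4 (855) and lowest in Ac3 (38.3), the cluster with most Igfbp2. In ending B it was highest in Bc3 (304) and Bc4 (296), the PDGFRA-high clusters with least Pdgfra. It was lowest in Bc15 (63.2), again the cluster with most Igfbp2. Over clusters the correlation of Igfbp2 with Igfbp7 on the log2(CPM + 1) scale was r = -0.74 in ending A (17 clusters) and -0.73 in ending B (16 clusters). These clusters share libraries and depth, and the values describe them only.

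**Figure D3:**
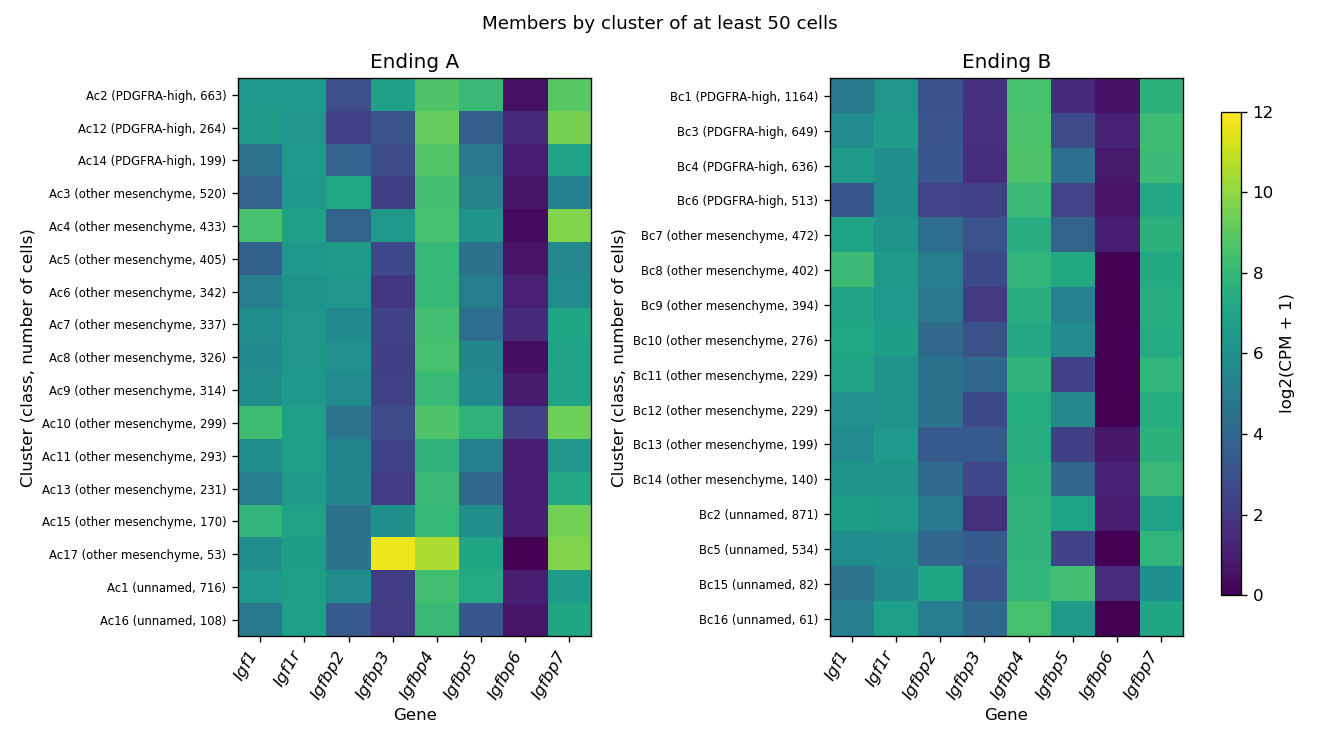
Heat map of log2(CPM + 1) of the 8 genes (columns) in each cluster of at least 50 cells (rows, with class and number of cells), ending A on the left and ending B on the right. Igfbp3 is brightest in cluster Ac17 (3289 CPM), and Igfbp5 in clusters Ac2 (271.6 CPM) and Bc15 (338.8 CPM).

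Genes with the cluster pattern most like each member were taken as those with the highest value of the smaller r of both endings, over genes reaching 50 CPM. For Igf1 they were Tgm2 (0.86), Copz2 (0.79) and Kdelr3 (0.79), and for Igf1r Tnrc18 (0.68), Dkk3 (0.60) and Cpq (0.59). For Igfbp2 they were Nrp2 (0.87), Sf3b5 (0.86) and Eml4 (0.86), and for Igfbp4 Ptprf (0.81), Atp6ap1 (0.81) and Shc1 (0.80). For Igfbp5 they were Myl9 (0.76), Lox (0.75) and Pid1 (0.74), and for Igfbp7 Pltp (0.81), Adamdec1 (0.79) and Ssr4 (0.78). Igfbp3 and Igfbp6 did not reach 20 CPM in both endings.

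Which genes were found in the same cells was counted at 2000 UMIs per cell, against the number that the separate shares within each set would give. In ending A, 435 cells had both Igf1 and Igfbp7 where 260.4 would follow, a ratio of 1.67 (1.52 to 1.83). Igf1 was also found with Igfbp3 (64 cells, ratio 1.84, 1.42 to 2.35) and with Igfbp5 (129 cells, 1.44, 1.20 to 1.71). It was found less with Igfbp2, in 31 cells where 71.9 would follow (0.43, 0.29 to 0.61), and this held in 3 of 3 sets.

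Among pairs of binding proteins in ending A, Igfbp3 was found above the separate shares with Igfbp5 (49 cells, 1.83, 1.35 to 2.41) and with Igfbp7 (160 cells, 1.81, 1.54 to 2.11). Igfbp2 was found below them with Igfbp7, in 77 cells where 138.5 would follow (0.56, 0.44 to 0.69), and with Igfbp3, in 11 cells (0.61, 0.30 to 1.08, an interval that includes 1). These were the 4 pairs beyond 1.5 times among 10 with at least 10 cells due. In ending B, 8 pairs had that many, and only Igfbp2 with Igfbp5 was above 1.5 times (30 cells where 16.6 would follow, 1.81, 1.22 to 2.58). Igfbp5 with Igfbp7 was at 0.67 (87 cells, 0.54 to 0.83). Igfbp4 and Igf1r stood between 0.82 and 1.14 with every other gene counted.

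Within clusters most of these ratios moved towards 1. In ending A they became 1.03 for Igf1 with Igfbp7, 1.06 for Igf1 with Igfbp3, 1.01 for Igfbp3 with Igfbp7 and 0.91 for Igfbp2 with Igfbp7. Igfbp3 with Igfbp5 stayed at 1.41 and Igf1 with Igfbp2 at 0.73, and Igfbp2 with Igfbp3 turned to 1.25. In ending B Igfbp2 with Igfbp5 became 1.15. The share of cells with UMIs of at least 3 binding proteins at this depth was 4.76%, 5.09% and 5.80% in A1, A2 and A3 and 1.5%, 1.08% and 0.415% in B1, B2 and B3, and the share with none was 29.3%, 31.8% and 21.7%, then 39.3%, 39.0% and 31.5%.

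**Figure D4:**
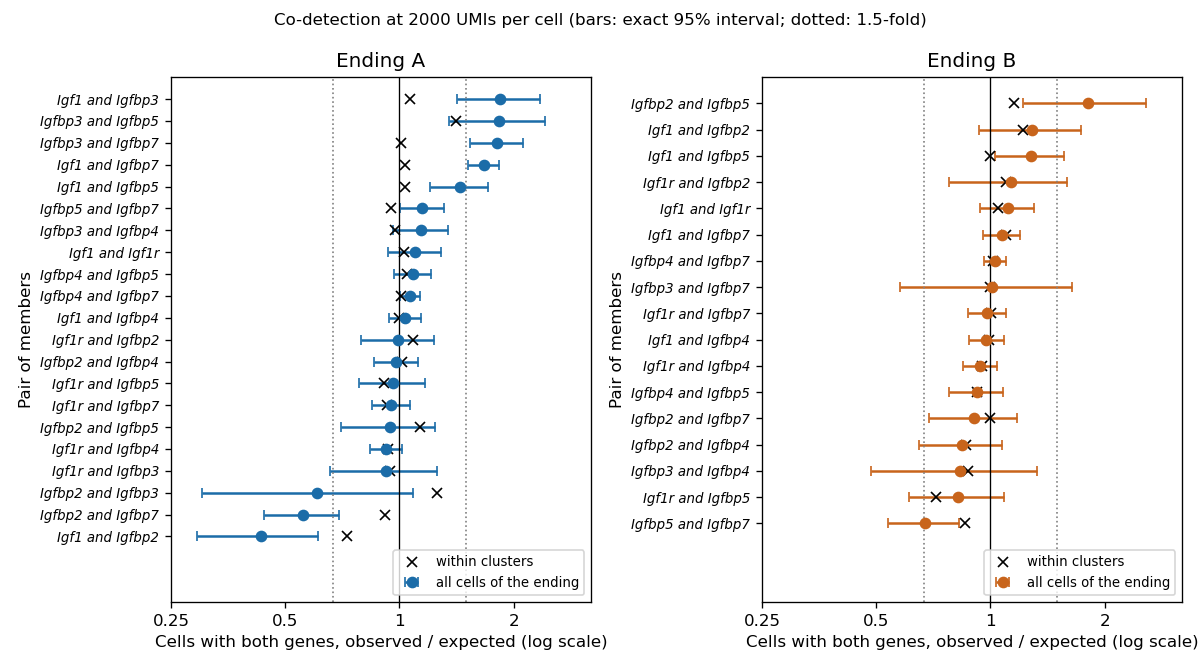
Cells with UMIs of both genes of a pair at 2000 UMIs per cell, observed over expected (x axis, log scale), for pairs with at least 10 cells expected (y axis), ending A left and ending B right. Points are pooled over sets with exact 95% intervals, crosses are values within clusters, and dotted lines mark 1.5 times. For Igf1 with Igfbp7 in ending A the point is at 1.67 and the cross at 1.03.

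Free RNA can place UMIs in cells that do not express a gene. In 37 glia-like cells of ending B, with a median of 7801 UMIs, the shares at 2000 UMIs were 8.11% for Igf1, 24.3% for Igf1r and for Igfbp4, 21.6% for Igfbp7, 2.70% for Igfbp2 and for Igfbp5, and 0% for Igfbp3. With so few cells the exact intervals were wide, 1.70% to 21.9% for Igf1 and 0.0684% to 14.2% for Igfbp2 and for Igfbp5, and they include the 5.95%, 0.876% and 1.48% of B3. The intervals also include the B1 and B2 shares of Igf1, Igfbp2 and Igfbp5, and the shares of every set of ending B for Igf1r, Igfbp3 and Igfbp7. For Igfbp4 the interval (11.8% to 41.2%) includes B1 and B2 but not the 51.4% of B3. All shares inside these intervals, low or not, were therefore not separated from free RNA by this measure. The Igfbp5 UMIs of B3 were spread unevenly over its clusters, with 37 in 18 cells of Bc15 and 2 in 877 cells of Bc1. No such cells were found in ending A, where 99.6% to 99.9% of the cells of each set had a UMI of an enterocyte gene, against 12.7% to 18.1% in ending B.

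In mesenchyme with a UMI of the cycling genes Mki67 or Top2a at this depth, against cells without, the log2 ratio stratified by set was negative in ending A for Igfbp3 (-1.40), Igfbp5 (-1.01), Igf1 (-0.91), Igfbp7 (-0.85) and Igfbp4 (-0.45), each in 3 of 3 sets. Igfbp2 (-0.12) and Igf1r (0.17) differed less. In ending B only Igfbp4 (-0.46) was as far below 0, and Igf1 was at 0.23, Igfbp2 at 0.41 and Igf1r at 0.29. In other mesenchyme alone the Igf1 value of ending B turned to -0.23, that of Igfbp2 to -0.02, and that of Igfbp5 moved from -0.10 to -0.80. Summed cycling markers were 914 CPM in A3 against 1815 and 1667 in A1 and A2, and 474 in B3 against 1539 and 1400 in B1 and B2, and their part in the differences between sets was not tested.

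The other genes of the pathway were taken from a list of 44. In A3, 10 of 31 tested were 2-fold or more higher and 1 lower, beside 9.63% higher and 5.68% lower of all genes tested. In B3, 10 of 28 were higher and 1 lower, beside 8.58% and 5.42%. The median log2 ratio of the list was 0.32 and 0.42, beside -0.05 and 0.12 over all genes tested. Those higher in both endings included Pappa, Stc1 and Mmp2 among the proteases and their inhibitors and Irs1, Pik3r1 and Socs2 among the signalling genes, and none was lower in both.

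Pappa, which encodes the protease PAPP-A that cuts IGFBP4 and IGFBP5, had 4.08, 3.83 and 135 CPM in A1, A2 and A3 and 14.8, 19.1 and 79.6 in B1, B2 and B3. The log2 ratios were 5.10 (4.89 to 5.30) and 2.22 (2.03 to 2.41), and Pappa was higher in PDGFRA-high than in other mesenchyme in 6 of 6 sets. Stc1, whose protein inhibits PAPP-A, had log2 ratios of 1.56 and 1.38, from 7.03, 7.41 and 21.3 CPM in ending A and 11.7, 11.5 and 30.3 in ending B. Mmp2, a matrix metalloprotease, had 1.12 and 1.01.

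Among the signalling genes, Pik3r1, which encodes a regulatory subunit of PI3K, had log2 ratios of 1.88 in ending A and 1.69 in ending B. The adaptor gene Irs1 had 1.42 and 1.5, and Socs2, a suppressor of growth hormone signalling, had 1.95 and 1.43. Insr, which encodes the insulin receptor, had 0.81 in ending A and 1.35 in ending B. Grb10, an adaptor that inhibits both receptors, was lower in PDGFRA-high cells than in other mesenchyme in 6 of 6 sets, by under 2-fold (-0.77 and -0.37).

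**Figure D5:**
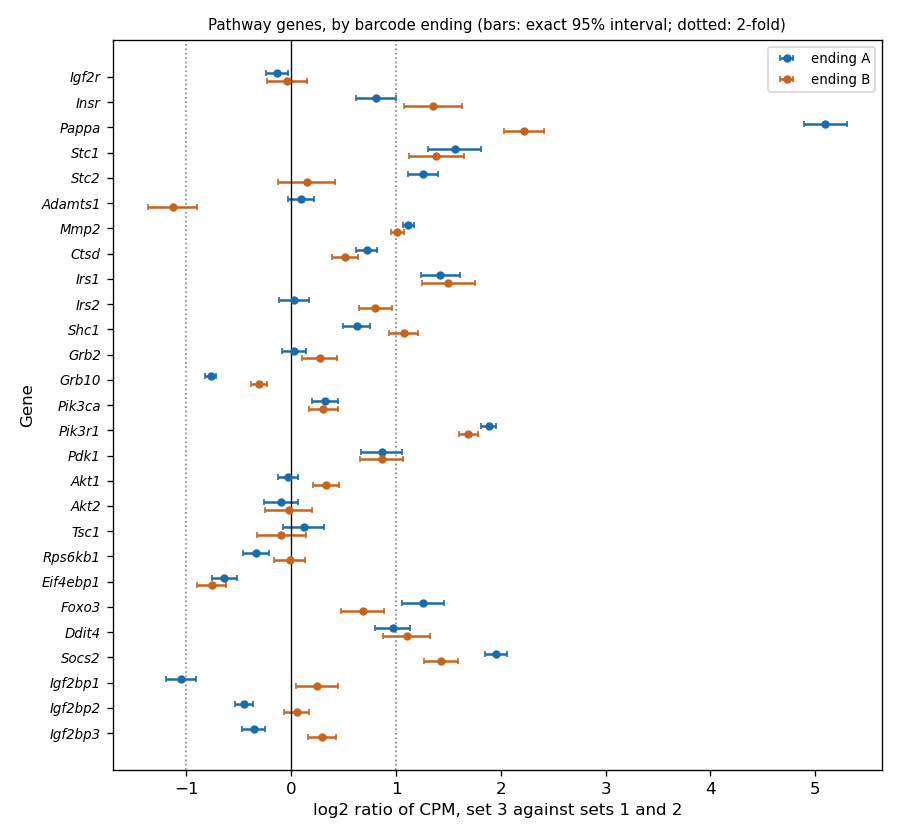
Log2 ratio of CPM of set 3 against sets 1 and 2 (x axis) for 27 pathway genes tested in both endings (y axis), with exact 95% intervals, ending A in blue and ending B in orange. Dotted lines mark 2-fold. Pappa lies farthest right in both endings (5.10 and 2.22).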

How the data were processed

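Per the labels' protocols, cells of 6 samples were tagged with lipid-anchored oligonucleotides (MULTI-seq), pooled and captured with 10x v3 3' chemistry, with 35000 cells put into each well to recover 20000. The submitters' processing notes name Cell Ranger 2.1.1, Seurat and the mm10 build. The authors deposited raw UMI counts per gene and cell for all samples in 1 matrix, with whole-number values. Tables of lipid barcodes were not used here, so segments and ages could not be assigned.

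Cells with fewer than 1000 genes (108) or over 5% mitochondrial UMIs (367) were left out, and Scrublet called 70 doublets. It called 0.421% of cells in ending A and 0.626% in ending B, far fewer than the 5% set as the expected rate, so doublets may remain in both. Each ending was clustered with scanpy 1.11.5 and leidenalg 0.10.2 (2000 variable genes, 30 components, 15 neighbours, resolution 1), leaving out the 8 genes and the pathway list. PDGFRA-high clusters had at least 3 of 15 markers at 2-fold or more and Pdgfra above the other cells. Other mesenchyme had at least 3 of 9 markers at 100 CPM or more, and other lineages 3 markers at 4-fold, 1 of them in the top 10. Clusters with more markers of another class in their top 10 stayed unnamed. So did a cluster that met the PDGFRA-high rule while another list had at least as many markers at 4-fold. This applied to Ac16, with 5 PDGFRA-high and 5 myeloid markers. The naming rule was set after seeing the data.

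UMIs were summed over cells and divided by the total to give CPM. Intervals, from scipy 1.17.1, are exact Poisson for CPM, exact conditional binomial for ratios and Clopper-Pearson for shares. No count model was fitted and no p-value is given, because 1 pooled matrix has no replicates. The ratio and co-detection steps were run on simulated counts drawn independently. Such counts follow the model behind the intervals and lack the uneven spread of UMIs over cells, so that spread was not checked.

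All 8 genes are named, with pathway genes 2-fold apart in both endings and the 3 genes most like each member, except 1 pathway gene that is counted but not reported here. Igfbp3 cells, cluster Ac2, Insr and Grb10 were singled out after their values were seen. Members, lists and tests were chosen with earlier results of these data known. RefSeq promoter windows were found for all 8 genes. Alternatives covered filters, clustering, thinning to 1500 and 3000 UMIs, reference sets, cell classes, totals and CPM minimum. Those added after seeing the data left out clusters Ac17 and Ac2, moved unnamed clusters, required Pdgfra at 2-fold or used other mesenchyme only.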

Additional observations from a re-analysis of the deposited data

Results flagged for a closer look

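The effect of set 3 on Igfbp5 had opposite signs in the 2 endings: the log2 ratio to sets 1 and 2 was 1.00 in ending A and -1.99 in ending B. Each direction held against set 1 and set 2 taken singly (0.92 and 1.09 in ending A, -1.86 and -2.10 in ending B). The difference between the endings was not tested, since the matrix has no replicates and the endings name some genes differently.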

How the results depend on the processing

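No paired analysis was possible because cells cannot be assigned to samples and no test was run. Intervals cover counting error only, and variation between embryos is not measured. Under the alternatives 89 counts were within 1.5 times of the value reported and 29 were not. Of the other values followed, 469 were classed as unchanged, 235 as moved and 4 as reversed. For counts and values that changed, the cause was not tested beyond what each alternative leaves out. The 1 gene of the axis higher in A3 became 0 with A1 alone as reference, in PDGFRA-high cells only and without cluster Ac2. It also became 0 with totals free of mitochondrial, ribosomal protein and haemoglobin genes. Without cluster Ac17 it became 2, but that cluster was chosen by its Igfbp3 level, so the Igfbp3 ratio had to rise. The 1 lower became 3 without Ac2. The 3 lower in B3 became 0 in PDGFRA-high cells only and 1 in other mesenchyme only. In PDGFRA-high cells of B1, B2 and B3 Igfbp2 had 11.2, 19.2 and 3.21 CPM and Igfbp5 11.9, 12.8 and 5.03. Both lay under the minimum of 20 CPM, so no call was possible, although B3 was the lowest. Igf1 had 78.7, 63.4 and 35.9 CPM there. The 2 higher in PDGFRA-high cells of ending A became 1 at resolution 1.5, with a class of the top 10% of Pdgfra counts and with mean per-cell CPM, and 0 without Ac2, where the 1 lower became 3. In ending B the 3 lower became 1 with sets weighted equally, and the 0 higher became 1 with no CPM minimum.

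The Igfbp5 log2 ratio reversed to -0.046 in other mesenchyme only and to -1.85 without Ac2 (A3 against A1 and A2), and to -1.34 without Ac2 (PDGFRA-high against other mesenchyme), a cluster chosen by its Igfbp5 UMIs, so that both values had to fall. Binding protein pairs below expected in ending A went from 2 to 0 at 1500 UMIs, 1 at 3000, 0 with at least 2 UMIs and 0 within clusters, and pairs above from 2 to 0 within clusters, where Igfbp2 with Igfbp3 reversed to 1.25. In ending B pairs above went from 1 to 0 at 1500 UMIs, with another random seed, with at least 2 UMIs and within clusters, and pairs below from 0 to 1 at 1500 UMIs, with another seed and without strata. In cycling cells of ending A Igfbp3 (-1.40) and Igfbp5 (-1.01) were 2-fold or more lower, a count without the share of all genes. It became 1 with Mki67 alone and 1 in other mesenchyme only, where Igfbp5 was at -0.88.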

Other observations

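Igf2, the second IGF ligand gene and the main one of fetal tissue, had 395, 382 and 389 CPM in A1, A2 and A3, and 7.27, 9.67 and 12.9 in B1, B2 and B3. The endings name some genes differently, so these levels were not compared. Ins2 had 1.46, 0.94 and 16.5 CPM in ending A.

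Htra1, a secreted protease with a domain like that of the IGF binding proteins, had 2.49, 2.09 and 63.3 CPM in A1, A2 and A3, a log2 ratio of 4.78 (4.51 to 5.06). In ending B it stood at 1.49, 1.61 and 10.8 CPM, under the minimum for a call. It was higher in PDGFRA-high than in other mesenchyme in 6 of 6 sets. Stc2, which like Stc1 encodes an inhibitor of PAPP-A, had 22.9, 25.3 and 57.6 CPM in ending A (log2 ratio 1.26) and 18.4, 18.1 and 20.2 in ending B (0.15). Igf2bp1, which encodes a protein that binds Igf2 mRNA, had 96.1, 94.5 and 46.0 CPM in ending A (-1.05), and 27.7, 32.3 and 35.8 in ending B (0.25). These genes were chosen after their values were seen.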
